A study of Caenorhabditis elegans with 14 samples.

Results

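The pre-mRNA splicing factors described here are the genes whose symbol in the platform annotation starts with prp-, rsp-, snr-, rnp-, uaf- or sftb-. The rule found 41 of the 17118 genes with a probe set for a single gene, through 58 of 20766 such probe sets. They were 12 prp, 8 rsp, 7 snr, 9 rnp, 2 uaf and 3 sftb genes, and each was tested in both comparisons with no filter on low values. Most of them have a known part in splicing, but rnp-8, the partner of the germ-line poly(A) polymerase GLD-2, carries the prefix without being a splicing factor.

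Total RNA of whole wild-type (N2) C. elegans, cultured at 15 °C and synchronised to the last larval stage (L4) before exposure, was hybridised to 14 Affymetrix arrays. Worms on 5 arrays had spent 2.5 h at 26 °C in a continuous microwave field, with a specific absorption rate of 5 to 40 mW per kg, inside a silver-plated exposure cell; the frequency is 1.8 GHz in one protocol text and 1 GHz in another. Worms on 5 sham arrays had spent the same time at the same temperature in a copper cell without a field. In the microwave comparison the field and the kind of exposure cell therefore cannot be told apart. Another 2 arrays are labelled heat shock and 2 heat control, and their heat treatment is not described in the sources used here, since their labels carry the microwave text. Each microwave or sham array held RNA pooled from 3 exposure runs. Because whole worms were extracted, fewer cells of a type and less RNA per cell cannot be told apart.

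The deposited values are ratios, so no absolute level could be given and the level of one gene was not set against that of another. Since all sham values equal 1, a microwave value was taken to be relative to its own sham partner, and the 2 arrays with a shared number are called a pair. The 2 heat control values of each probe set average 1, and the values labelled heat shock were read as ratios to that mean. The arrays labelled heat shock went against their label: the heat-inducible chaperone genes hsp-16.41, hsp-16.2 and hsp-70 had log2 fold changes of -4.98, -4.86 and -3.34, arrays labelled heat shock over heat control. Every direction given for the heat arrays therefore follows the labels and turns round if the labels or the ratios run the other way. The small number of arrays sets the precision, and the spread over all genes was larger in pair 1 (SD of log2 ratios 0.36) than in the other 4 microwave pairs (0.10 to 0.15).

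Introns are removed by the spliceosome, which assembles on each intron from small nuclear ribonucleoproteins (snRNPs) and many further proteins. In the snRNPs of the major pathway other than that of U6, a ring of Sm proteins holds the small nuclear RNA, while U6 carries a ring of related LSm proteins. U2AF and the SF3 complexes recognise the end of the intron and its branch point, SR proteins bind exons, and PRP proteins take part in assembly, activation and catalysis. In C. elegans the same machinery also joins short spliced leader RNAs to the start of many mRNAs.

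In the arrays labelled heat shock 5 of the 7 Sm core genes rose, led by the SmF gene snr-5, while 5 of the 12 prp genes fell, led by prp-31. Of the 41 genes 18 (43.9%) passed an adjusted p of 0.05 in limma, where 30.0% of all genes did. Higher were 8 members (19.5%, against 15.2% of all genes), and 10 were lower (24.4%, against 14.8% of all genes). The median log2 fold change was -0.21 over the members and 0.13 over all genes. No snr gene fell and no prp gene rose. Of the 8 rsp genes 2 rose and 1 fell, and of the 9 rnp genes 1 rose and 2 fell. Of the uaf and sftb genes 1 of 2 and 1 of 3 fell, and 0 rose. The class medians on the log2 scale were 0.83 for snr, -0.01 for rsp, 0.07 for rnp, 0.02 for uaf, -0.42 for sftb and -0.48 for prp; with each array centred on its median, those of rnp and uaf turned to -0.03 and -0.08. The uaf median, of 2 genes, ranged from -0.28 to 0.32 when 1 of the 4 arrays was left out. The 2 arrays of each label did not overlap for 35 members (85.4%), where the same held for 73.0% of all genes.

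**Figure D1:**
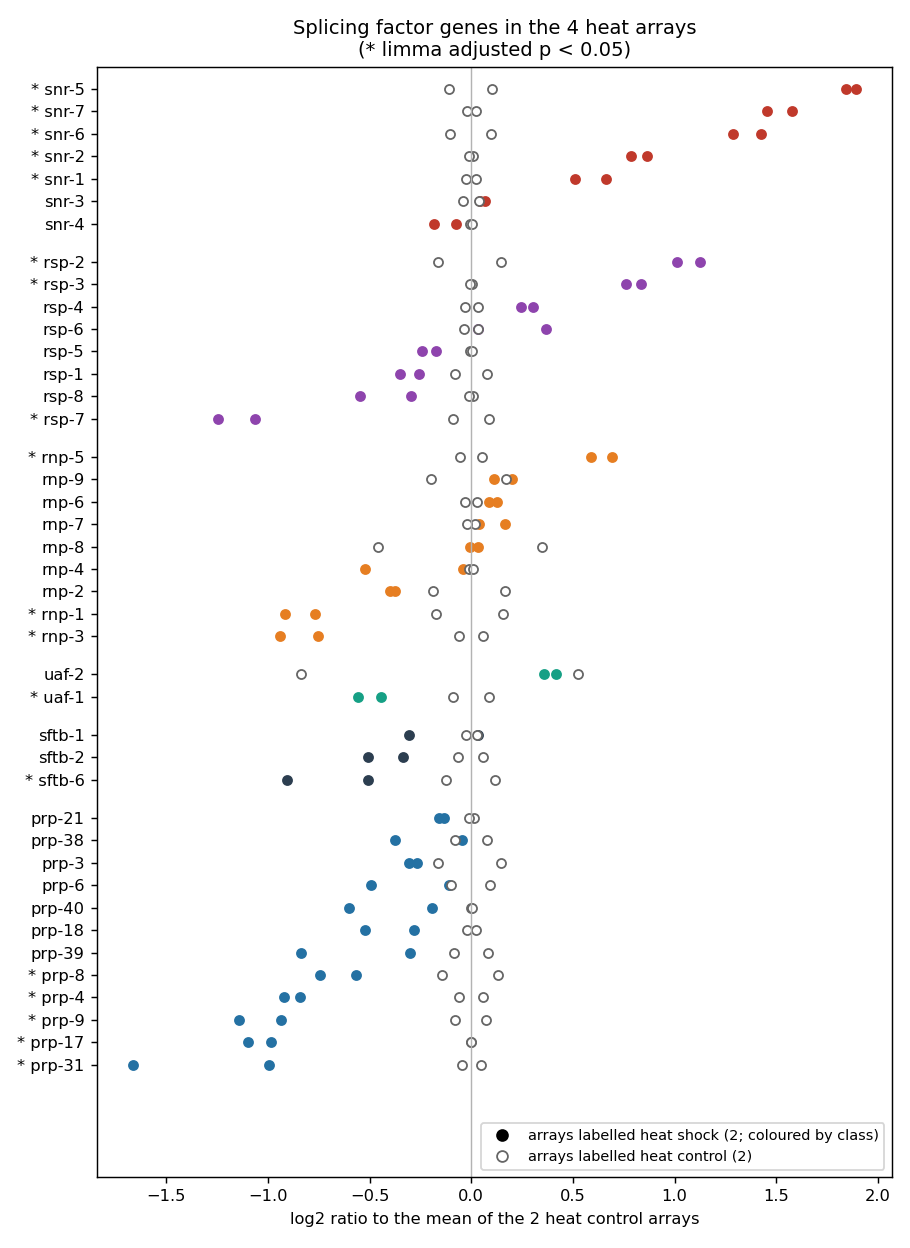
The log2 ratio to the mean of the 2 heat control arrays (horizontal axis) is plotted for each of the 41 genes (rows, grouped by class), with filled points for the 2 arrays labelled heat shock, open points for the 2 heat control arrays and a star for genes past an adjusted p of 0.05 in limma. The Sm genes snr-5, snr-7 and snr-6 stand farthest to the right and prp-31 farthest to the left, and the 2 control values of uaf-2 lie on both sides of its values labelled heat shock.

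These calls rested on both arrays labelled heat shock, and some also on a single heat control array. Without the first, 0 members passed the adjusted threshold (lowest adjusted p 0.0578 in limma), as did 0 of all genes, although 18 members had an unadjusted p under 0.05, where 29.8% of all genes did. Without the second, 4 members passed, where 4.58% of all genes did. Without the first heat control array 15 members passed, where 26.2% of all genes did, and uaf-1, sftb-6 and snr-1 did not (limma adjusted p = 0.106, 0.105 and 0.055). Without the second heat control array 19 passed, where 29.6% of all genes did: prp-8 did not (limma adjusted p = 0.068), while uaf-2 and rnp-2 did (0.0055 and 0.043). Quantile normalisation of the 4 arrays also left 0 members and 0 of all genes past the adjusted threshold, with 11 members at an unadjusted p under 0.05, where 8.79% of all genes were.

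The 7 Sm proteins enter the ring as sub-complexes, F with E and G, D1 with D2, and D3 with B. The genes of the F-E-G sub-complex had the largest increases among the members. snr-5, which encodes SmF, had ratios of 3.58 and 3.71 in the arrays labelled heat shock, against 0.926 and 1.07 in the heat control arrays. snr-7, which encodes SmG, had ratios of 2.74 and 2.98 in the arrays labelled heat shock, against 0.984 and 1.02 in heat control. snr-6, which encodes SmE, had ratios of 2.69 and 2.44 in the arrays labelled heat shock, against 0.931 and 1.07 in heat control. For all 3 genes each value labelled heat shock was more than 2 times every control value. Their log2 fold changes were 1.87 ± 0.13, 1.51 ± 0.12 and 1.36 ± 0.14 (SE, n = 2 arrays each), with limma adjusted p-values of 0.0025, 0.0027 and 0.0040.

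The D3-B pair followed with smaller rises. snr-2, which encodes SmB, had ratios of 1.82 and 1.73 in the arrays labelled heat shock, against 1.01 and 0.992 in heat control, a log2 fold change of 0.83 ± 0.11 (SE, limma adjusted p = 0.0084). snr-1, which encodes SmD3, had ratios of 1.58 and 1.42 in the arrays labelled heat shock, against 0.983 and 1.02 in heat control, a log2 fold change of 0.59 ± 0.12 (SE, limma adjusted p = 0.025). The genes of the D1-D2 pair did not pass the test: snr-3 (SmD1) had a log2 fold change of 0.06 ± 0.11 and snr-4 (SmD2) one of -0.13 ± 0.12 (SE), with limma adjusted p-values of 0.73 and 0.43. This grouping by sub-complex was made with the values known, and the difference between sub-complexes was not tested. Probe set type differed too: snr-1, snr-3 and snr-4 were each read only by a probe set that can match several genes. With such probe sets left out, 4 snr genes stayed measured, those of F-E-G and snr-2. The part of probe set type in the difference was not tested. The 2 probe sets of snr-2 gave 0.53 and 1.12 on the log2 scale, so the spread within a gene reached that between neighbouring sub-complexes.

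The LSm genes form the ring of U6 and, with another subunit, a ring of mRNA decay, and their symbols do not match the rule. All 7 measured LSm genes rose, where 15.2% of all genes did, with log2 fold changes from 0.50 to 1.61 and a median of 1.24. lsm-5 had log2 ratios of 1.61 and 1.62 in the arrays labelled heat shock, against -0.05 and 0.05 in heat control. gut-2, the gene of LSm2, had 1.51 and 1.52 in the arrays labelled heat shock, against -0.11 and 0.10 in heat control. lsm-6 had 1.34 and 1.38 in the arrays labelled heat shock, against -0.15 and 0.14 in heat control. The 3 genes had limma adjusted p-values of 0.0025, 0.0030 and 0.0045, with no overlap between the labels. With probe sets that can match several genes left out, gut-2 was not measured. The other 4 were lsm-7 at 1.24, lsm-1, a subunit of the cytoplasmic decay ring, at 1.21, lsm-3 at 0.68 and lsm-4 at 0.50. lsm-8, which was on the same list, was not measured.

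**Figure D2:**
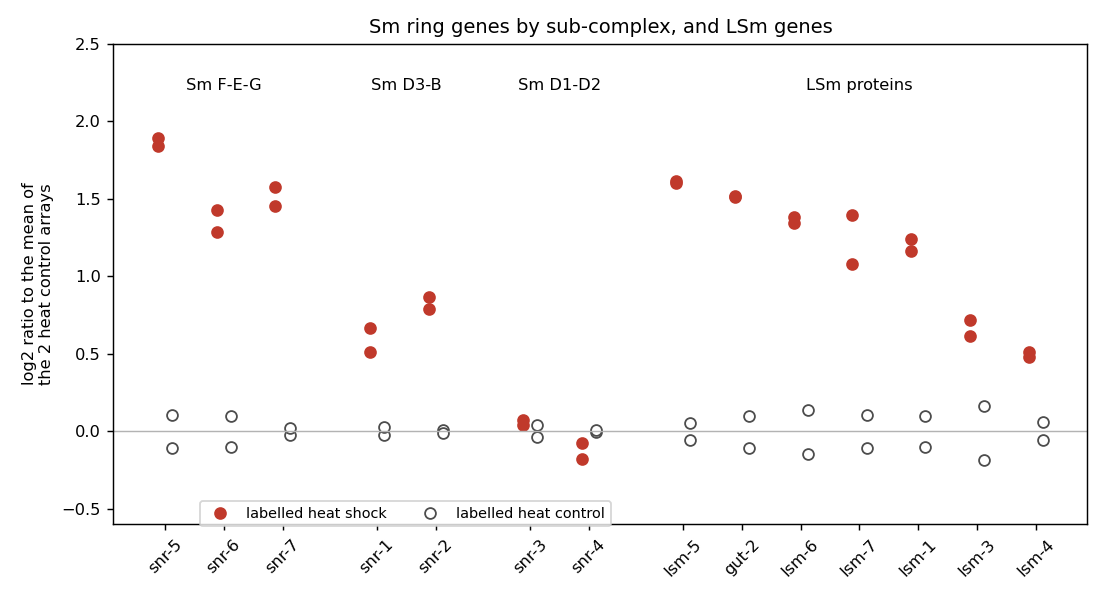
The log2 ratio to the mean of the 2 heat control arrays (vertical axis) is plotted for the 7 Sm genes, by sub-complex, and the 7 LSm genes, with filled points for arrays labelled heat shock and open points for heat control. The F-E-G genes and 5 of the LSm genes lie above 1, the D3-B genes between 0.51 and 0.87, and the D1-D2 genes between -0.18 and 0.07.

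The Sm and LSm genes are short, and over all genes the ratio in the arrays labelled heat shock was weakly and negatively related to gene length. The 7 snr genes spanned 369 to 1216 bp, with a median of 828 bp, against a median of 2185 bp over all genes. The Spearman correlation of the log2 fold change with gene length was -0.47 over the 41 members, -0.20 over the 34 members other than snr and -0.18 over 17072 genes; genes within these arrays share the same libraries and are not independent. With a smooth trend on length removed from each array, snr-5, snr-7, snr-6 and snr-2 still passed the adjusted threshold at log2 fold changes of 1.59, 1.19, 1.07 and 0.65. snr-1 did not, at 0.43 (limma adjusted p = 0.055). Of the LSm genes 6 of 7 passed after the same step, with a median of 1.02, and over the 41 members 7 were higher and 10 lower, where 16.4% and 13.9% of all genes were.

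**Figure D3:**
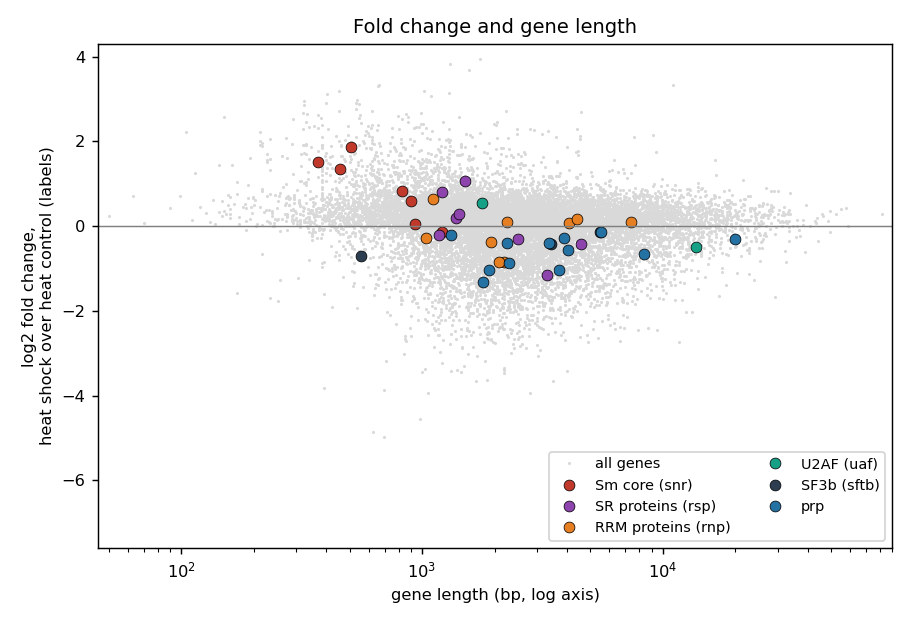
The log2 fold change, arrays labelled heat shock over heat control (vertical axis), is plotted against gene length in bp (horizontal log axis) for all genes (grey) and for the 41 splicing factor genes, coloured by class. The snr genes lie at the short end between 369 and 1216 bp, where the grey cloud also reaches upward, and the prp genes, from 1314 to 19875 bp, all lie below 0.

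All 12 prp genes had a log2 fold change below 0, where 38.1% of all genes did, and 5 passed the test. prp-31, a protein of the U4/U6 snRNP, had ratios of 0.316 and 0.501 in the arrays labelled heat shock, against 0.968 and 1.03 in heat control. prp-17, which acts at the second step of splicing, had ratios of 0.467 and 0.505 in the arrays labelled heat shock, and both heat control arrays stood at 1. prp-9, the SF3A3 subunit of the U2 snRNP, had ratios of 0.522 and 0.453 in the arrays labelled heat shock, against 1.05 and 0.947 in heat control. In each of these genes both values labelled heat shock were near or below 0.5, and no control value was below 0.9.

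Their log2 fold changes were -1.33 ± 0.24, -1.04 ± 0.12 and -1.04 ± 0.14 (SE, n = 2 arrays each), with limma adjusted p-values of 0.016, 0.0051 and 0.0074. prp-4, another U4/U6 snRNP protein, had ratios of 0.528 and 0.558 in the arrays labelled heat shock, against 0.958 and 1.04 in heat control, a log2 fold change of -0.88 ± 0.12 (SE, limma adjusted p = 0.0081). prp-8, which forms the scaffold of the catalytic core in the U5 snRNP, fell by 0.65 ± 0.15 on the log2 scale (SE, limma adjusted p = 0.033). The calls thus covered proteins of the U2, U4/U6 and U5 particles as well as a second-step factor. Of the called prp genes, prp-9 and prp-8 were each read only by a probe set that can match several genes.

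The other 7 prp genes did not pass the test, with log2 fold changes from -0.57 for prp-39, a U1-associated protein, to -0.15 for prp-21, the SF3A1 subunit of the U2 snRNP. Between them lay prp-18 (second step) at -0.40, prp-40 (U1-associated) at -0.40, prp-6 (U5 snRNP) at -0.30, prp-3 (U4/U6 snRNP) at -0.28 and prp-38 (spliceosome activation) at -0.21. Of these 7 genes prp-38 had overlapping labels, with ratios of 0.969 and 0.771 in the arrays labelled heat shock, against 0.945 and 1.06 in heat control.

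At the branch point and the end of the intron, the 3 sftb genes of the SF3b complex lay below 0 and the 2 U2AF subunits lay on opposite sides of it. sftb-6, the branch point protein SF3B6 (p14), had ratios of 0.533 and 0.702 in the arrays labelled heat shock, against 1.08 and 0.916 in heat control. Its log2 fold change was -0.70 ± 0.18 (SE, limma adjusted p = 0.043), a call that was lost without the first heat control array. The sftb-6 value rested on 1 probe set that can match several genes. Another probe set, assigned to both C50D2.10 and sftb-6, went the other way at 0.82 and entered no gene mean. sftb-2, the SF3B2 subunit, had ratios of 0.793 and 0.704 in the arrays labelled heat shock, against 0.954 and 1.04 in heat control, and a log2 fold change of -0.42 ± 0.13 (SE, limma adjusted p = 0.067). sftb-1, the large SF3B1 subunit, had ratios of 1.02 and 0.810 in the arrays labelled heat shock, against 0.981 and 1.02 in heat control, so its labels overlapped.

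uaf-1, the large U2AF subunit that binds the polypyrimidine tract, had ratios of 0.735 and 0.679 in the arrays labelled heat shock, against 1.06 and 0.938 in heat control, and a log2 fold change of -0.50 ± 0.13 (SE, limma adjusted p = 0.042). Without the first heat control array this call was lost too. Both uaf genes were read only by probe sets that can match several genes, so neither was measured with such probe sets left out. uaf-2, the small subunit that reads the AG at the end of the intron, had ratios of 1.33 and 1.28 in the arrays labelled heat shock, against 0.560 and 1.44 in heat control. Its 2 values labelled heat shock lay between its 2 control values, and its log2 fold change was 0.54 ± 0.44 (SE, limma adjusted p = 0.38). It was -0.14 without the first heat control array and 1.22 without the second.

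The 2 heat control arrays also lay apart for oocyte genes. The median log2 ratio of 16 oocyte and eggshell markers was -0.06 and -0.12 in the arrays labelled heat shock, against -0.77 and 0.50 in heat control. rnp-8 had ratios of 0.997 and 1.02 in the arrays labelled heat shock, against 0.727 and 1.27 in heat control. As for uaf-2, the first control array was the lowest and the second the highest of the 4. The part of oocyte content in the uaf-2 values was not tested.

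The SR protein genes lay on both sides of 0. rsp-2 had ratios of 2.18 and 2.02 in the arrays labelled heat shock, against 0.892 and 1.11 in heat control, and a log2 fold change of 1.08 ± 0.15 (SE, limma adjusted p = 0.0088). rsp-3, the worm counterpart of the general splicing factor SRSF1, had ratios of 1.79 and 1.70 in the arrays labelled heat shock, against 1.00 and 0.996 in heat control, and a log2 fold change of 0.80 ± 0.11 (SE, limma adjusted p = 0.0090). rsp-7, related to human SREK1, had ratios of 0.422 and 0.478 in the arrays labelled heat shock, against 1.06 and 0.938 in heat control, and a log2 fold change of -1.15 ± 0.14 (SE, limma adjusted p = 0.0057). In these 3 genes no value labelled heat shock came near a control value. Both probe sets of rsp-2 can match several genes, so rsp-2 was not measured with such probe sets left out. In that setting rsp-3 had a log2 fold change of 0.61 (limma adjusted p = 0.045).

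The other 5 SR genes did not pass, from -0.42 for rsp-8, the TRA2 counterpart, to 0.28 for rsp-4, the SRSF2 counterpart. rsp-1 and rsp-2 are next to each other in the RefSeq gene order, with 0 genes between them, and stood at -0.30 and 1.08 on the log2 scale. The other adjacent pairs were rnp-3 with rnp-2, at -0.85 and -0.38, and rsp-5 with snr-3, at -0.21 and 0.06. The difference within each adjacent pair was not tested.

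Among the rnp genes, which encode RNA-recognition-motif proteins, 1 rose and 2 fell. rnp-5, the counterpart of the exon-binding activator RNPS1, had ratios of 1.62 and 1.50 in the arrays labelled heat shock, against 0.962 and 1.04 in heat control, and a log2 fold change of 0.64 ± 0.12 (SE, limma adjusted p = 0.019). rnp-3, a U2 snRNP protein of the U2B″ type, had ratios of 0.521 and 0.592 in the arrays labelled heat shock, against 1.04 and 0.960 in heat control, and a log2 fold change of -0.85 ± 0.13 (SE, limma adjusted p = 0.011). rnp-1 fell by 0.84 ± 0.16 on the log2 scale (SE, limma adjusted p = 0.019). The 2 arrays of each label lay apart in all 3 genes. Both probe sets of rnp-5 can match several genes.

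The other 6 rnp genes ranged from -0.38 for rnp-2, the SNRPA protein of the U1 snRNP, to 0.17 for rnp-9. Between them stood rnp-4, the Y14 protein of the exon junction complex, at -0.28, rnp-8 at 0.07, rnp-7, the SNRNP70 protein of the U1 snRNP, at 0.10 and rnp-6, the counterpart of PUF60, at 0.11. For rnp-7 the gene mean hid disagreement, since 1 probe set gave 0.64 and the other -0.44. Of the 13 members with 2 or more probe sets, rnp-7 and rnp-6 had probe sets of opposite sign.

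Other splicing genes came from 5 lists of genes whose symbols, rnp-4 apart, do not match the rule. Over the lists together 12 of 86 genes were higher and 28 were lower, where 15.2% and 14.8% of all genes were, and all 7 LSm genes were among the 12. Of 37 other spliceosomal proteins 2 were higher and 13 lower, with a median log2 fold change of -0.32, and of 20 hnRNP proteins and splicing regulators 1 was higher and 9 were lower, with a median of -0.34. Of 11 genes of snRNP assembly 1 was higher and 4 lower, with a median of 0.07. Of 12 genes of the exon junction complex and nonsense-mediated decay 1 was higher and 2 were lower, with a median of -0.22.

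The named decreases came from 3 of these lists. tgs-1, which makes the trimethylguanosine cap of small nuclear RNAs, had log2 ratios of -2.01 and -1.86 in the arrays labelled heat shock, against -0.02 and 0.02 in heat control. smg-4, a nonsense-mediated decay factor, had -1.51 and -1.96 in the arrays labelled heat shock, against -0.30 and 0.25 in heat control. tiar-1, an RNA-binding protein of stress granules, had -1.52 and -1.56 in the arrays labelled heat shock, against -0.08 and 0.08 in heat control. Their limma adjusted p-values were 0.0024, 0.0095 and 0.0028, and no value labelled heat shock overlapped a control value. With probe sets that can match several genes left out, tgs-1 was not measured.

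Some tissue markers also moved in the same comparison, where 15.2% of all genes were higher and 14.8% lower. Of 13 body wall muscle markers 9 were lower and 1 higher, with a median log2 fold change of -0.87. Of 13 genes listed as intestine markers 10 were lower and 2 higher, with a median of -0.76. The 2 higher were mtl-2 at 3.12 and gcy-9 at 0.57, and whether they read intestine content was not tested. Of 20 sperm markers 9 were higher and 2 lower, with a median of 0.50. Of 24 germ-line markers 2 were higher and 4 lower, with a median of 0.00, and of 16 oocyte markers 0 passed in either direction. Neuron markers had 2 lower genes of 12, and hypodermis markers 4 lower and 1 higher of 10. The lower counts of the germ-line and neuron markers were near the share of all genes. The mean 3′ minus 5′ log2 difference of 5 worm control transcripts was 0.05 and 0.05 in the arrays labelled heat shock, against 0.03 and -0.02 in heat control. Single transcripts lay apart, from -0.37 for gly14 to 0.33 for actin in the arrays labelled heat shock, against -0.15 to 0.19, both for catalase, in heat control. As the values are ratios, no summed marker level could be given, and the part of tissue makeup in the splicing gene values was not tested.

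Under the microwave field 0 of the 41 genes passed the adjusted threshold, as did 0 of the 17118 genes. At an unadjusted p under 0.05 there were also 0 members, where 3.34% of all genes passed. The lowest unadjusted p among the members was 0.053, for rnp-8, and its limma adjusted p was 0.87. The median log2 fold change of microwave over sham was 0.05 over the members and -0.0026 over all genes, and 29 of 41 members (70.7%) lay above 0, where 48.6% of all genes did. Mean changes ran from -0.13 for prp-40 to 0.32 for rnp-8 and prp-8.

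The intervals show which changes the 5 pairs leave possible. The 95% interval from limma lay within 1.5-fold in either direction for 37 of 41 members (90.2%), where 98.4% of all genes did, and within 2-fold for all 41. The 4 members with wider intervals were prp-8, prp-17, prp-9 and rnp-8. The interval of prp-8 ran from -0.13 to 0.77 and that of rnp-8 from -0.01 to 0.65 on the log2 scale. All 7 snr and all 8 rsp genes lay within 1.5-fold.

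**Figure D4:**
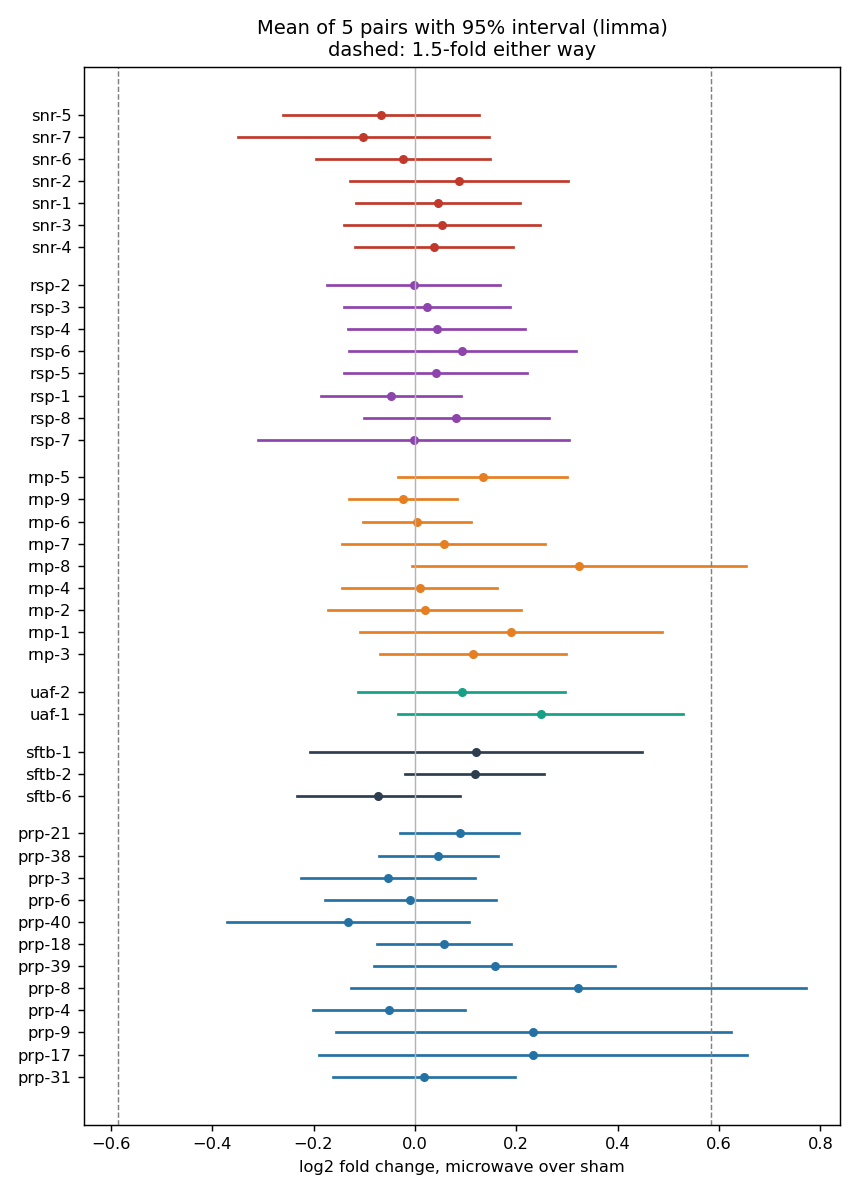
The mean log2 fold change of microwave over sham over 5 pairs (point) is drawn with its 95% limma interval (line) for each of the 41 genes (rows, grouped by class), with dashed lines at 1.5-fold in either direction. Every interval includes 0, and those of rnp-8, prp-8, prp-9 and prp-17 cross the upper dashed line.

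Of the 5 genes with the smallest p-values, 4 were highest in pair 1. rnp-8 had log2 ratios of 0.97, 0.15, 0.48, -0.09 and 0.10 in pairs 1 to 5, a mean of 0.32 ± 0.42 (SD, n = 5 pairs). uaf-1 had 0.84, 0.15, 0.13, -0.08 and 0.20, a mean of 0.25 ± 0.35 (SD, n = 5 pairs). In both genes pair 1 was the highest and pair 4 the only one below 0. rnp-5 had 0.43, 0.13, 0.09, -0.03 and 0.05, a mean of 0.13 ± 0.18 (SD, n = 5 pairs), again with pair 1 highest and pair 4 below 0. sftb-2 had 0.09, 0.23, 0.23, -0.07 and 0.11, a mean of 0.12 ± 0.12 (SD, n = 5 pairs), with pairs 2 and 3 highest. prp-21 had 0.20, 0.00, 0.03, 0.10 and 0.11, a mean of 0.09 ± 0.08 (SD, n = 5 pairs), and was above 0 in all 5 pairs. Its unadjusted p in limma was 0.12 and its adjusted p 0.87.

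The other branch point and U2AF genes each had pairs on both sides of 0. sftb-1 had log2 ratios of 0.82, -0.04, 0.09, -0.27 and 0.01 in pairs 1 to 5, a mean of 0.12 ± 0.42 (SD, n = 5 pairs). sftb-6 had -0.24, 0.07, -0.26, 0.09 and -0.03, a mean of -0.07 ± 0.17 (SD, n = 5 pairs). uaf-2 had 0.38, 0.08, 0.14, -0.28 and 0.14, a mean of 0.09 ± 0.24 (SD, n = 5 pairs). Without pair 1 the mean of sftb-1 turned to -0.06.

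Pair 1 stood apart for several prp genes, though not for prp genes alone. The class medians there were 0.16 for prp, 0.34 for rsp, 0.21 for snr, 0.31 for rnp, 0.61 for uaf and 0.09 for sftb. prp-8, prp-17 and prp-9 had log2 ratios of 1.33, 1.18 and 1.11 there, and between -0.20 and 0.19 in the other 4 pairs. The members' median log2 ratio reached 0.28 in pair 1, while the other pairs gave medians from -0.09 to 0.06, against medians between -0.02 and 0.01 over all genes in the 5 pairs. Without pair 1 the median of the member means was -0.01. In the same pair the 3′ minus 5′ difference of log2 ratios, a sign of RNA quality, had a mean of -0.74 over 5 worm control transcripts (-1.89 to 0.03), against -0.13 to 0.03 in the other pairs. Germ-line markers had a median log2 ratio of 0.54 and oocyte markers of 0.64 in pair 1, against -0.11 to 0.13 and -0.17 to 0.06 in the others. The other tissue lists had medians in pair 1 from -0.25 for sperm markers to 0.30 for intestine markers. The part of RNA quality, germ-line content or other tissue content in the splicing gene values was not tested.

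Of the 7 snr genes 4, 7, 0, 6 and 2 were above 0 in pairs 1 to 5. In pair 3 they ran from -0.40 for snr-7 to -0.19 for snr-1, with a class median of -0.26. In pair 4 their median was 0.16, with snr-7 highest at 0.29. The LSm genes had a median log2 ratio of -0.37 in pair 1, 0.07 in pair 2, -0.37 in pair 3, 0.31 in pair 4 and -0.10 in pair 5. The prp genes had a median of -0.15 in pair 4, with prp-40 lowest at -0.63.

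The log2 ratios also varied with gene length. The Spearman correlation of the log2 ratio with gene length over the 41 members was 0.28, -0.27, 0.70, -0.53 and 0.38 in pairs 1 to 5, and over 17072 genes it was 0.27, -0.02, 0.30, -0.32 and 0.18. The sign thus changed between pairs, among the members and among all genes. Over the 41 members the Pearson correlation between pairs ran from -0.55, for pairs 3 and 4, to 0.60, for pairs 3 and 5, and over all genes from -0.38 to 0.33. These are descriptions across genes that share a library and are not independent.

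**Figure D5:**
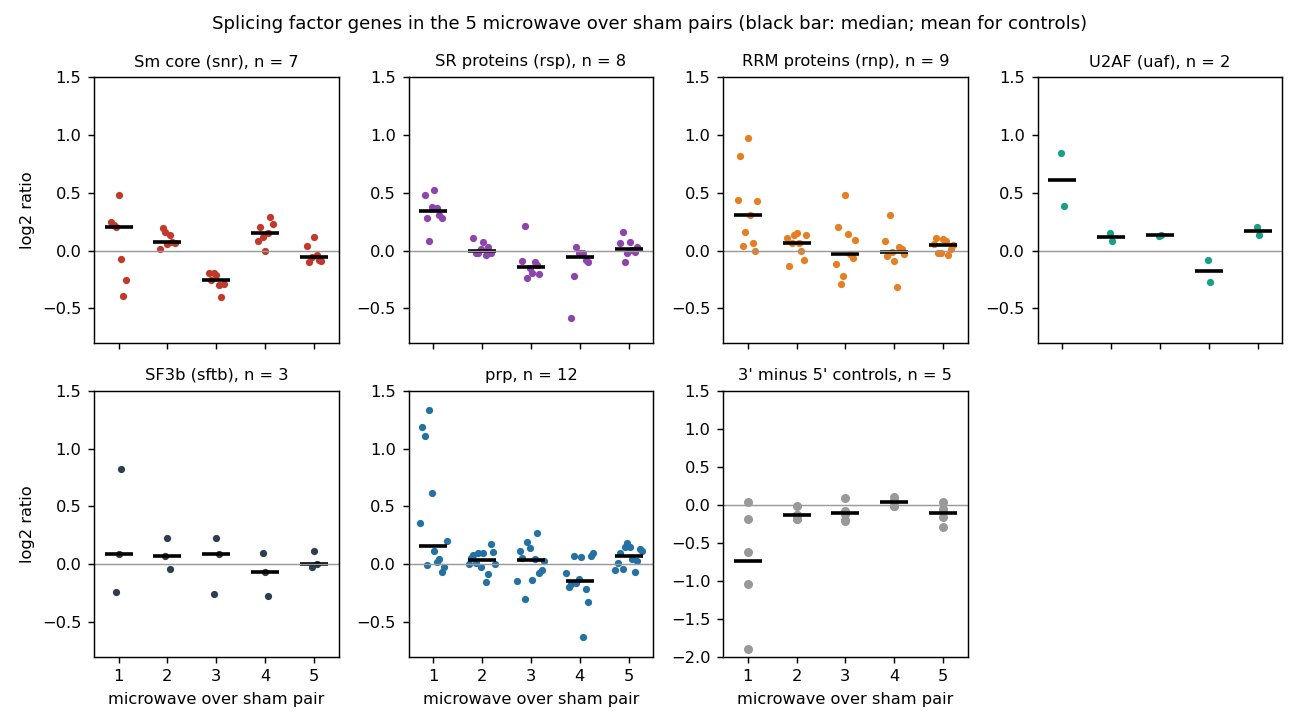
The log2 ratio of microwave over sham (vertical axis) is plotted for each pair (horizontal axis, pairs 1 to 5) by class, with 1 point per gene and a black bar at the class median; the last panel shows the 3′ minus 5′ log2 difference of 5 control transcripts with their mean. The prp points reach 1.33 in pair 1, where the control mean is -0.74, and all 7 snr points of pair 3 lie below 0.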

How the data were processed

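Total RNA was measured on 14 Affymetrix arrays, 5 microwave, 5 sham, 2 labelled heat shock and 2 labelled heat control. The authors deposited linear ratios. The labels' protocols describe GCOS and MAS 5 normalisation, whereas RMA appears in the submitters' processing notes; which step made these ratios is not stated in either. The baseline of each column was inferred from the values: 0 sham values differ from 1, and the 2 heat control columns sum to 2 within 0.001. Scan batches were not analysed here.

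The ratios were put on the log2 scale. After 77 control probe sets were removed, 22548 remained, of which 20766 had 1 gene in the platform annotation, 887 several and 895 none listed. Symbols were updated through the RefSeq table of assembly WBcel235, and each gene is the mean of its single-gene probe sets. Gene length is the span in that table, known for 99.7% of genes and all 41 members. limma 3.58.1 in R 4.3.3 (lmFit, eBayes, two-sided, Benjamini-Hochberg over 17118 genes, threshold 0.05) tested the mean of 5 log2 pair ratios against 0 for microwave, which holds the pairing, and 2 arrays against 2 for heat, with no block. The planned fallback for intensities was not needed. The length trend was a lowess fit with a span of 0.3. Nothing says that the replicate arrays of the heat groups came from separate cultures, so their p-values may measure technical spread. The fits were tested on simulated data.

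The members, lists and tests were chosen with earlier results of these data known. Values of every array are given for the 6 largest increases and decreases called in the heat comparison without overlap, the 5 smallest unadjusted p-values under microwave, every sftb and uaf gene, and the 3 largest changes each way among the other splicing lists; values given for further genes were chosen after they were seen. The alternatives were centring, quantile normalisation, leaving out probe sets that can match several genes, robust variances, array weights, length trend removal, a replicate block, a stricter threshold, probe sets in place of genes, and leaving out each pair or array.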

Additional observations from a re-analysis of the deposited data

Results flagged for a closer look

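Pair 1 of the microwave comparison lay far from the other pairs for 4 members. The log2 ratio of microwave over sham in that pair was 1.18 for prp-17, 1.33 for prp-8, 1.11 for prp-9 and 0.37 for rsp-4, and in each gene the gap to the next pair exceeded 0.71 of the whole range, Dixon's critical value for 5 samples. These are 9.76% of the 41 members, where 11.2% of all 17118 genes were past the same value. The count over all genes takes any of the 5 pairs in either direction, not pair 1 alone. Chance gives about 1 in 20.

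A probe set that the annotation assigns to both C50D2.10 and sftb-6, and which therefore entered no gene mean, had log2 ratios of 0.81 and 0.83 in the arrays labelled heat shock, against -0.01 and 0.01 in heat control, a difference of 0.82. The probe set of sftb-6 alone had a log2 fold change of -0.70. Which gene the shared probe set reads was not tested.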

How the results depend on the processing

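Quantile normalisation ended every heat call: 0 members, 0 higher and 0 lower, 0 prp, 0 snr, 0 LSm genes and 0 higher and 0 lower genes of the other splicing lists passed, and 0 of all genes, with 11 members and 8.79% of all genes at an unadjusted p under 0.05. It gives all 4 heat arrays one distribution, although the SD over genes was 0.70 to 0.74 in the arrays labelled heat shock and 0.19 to 0.20 in heat control. At an adjusted p under 0.01, 10 members passed, 4 of them lower, 3 of these prp genes, and 15 lower genes of the other lists. Leaving out probe sets that can match several genes left 24 members measured, of which 6 were lower, 3 of these prp genes, with 4 LSm genes higher, 23 members within 1.5-fold under microwave, and no uaf gene. Same-numbered heat arrays did not deviate together (r = -0.063 over genes, 2 pairs). This single correlation cannot tell whether they shared a culture or a batch. With the replicate block 14 members passed, and sftb-6 and uaf-1 did not (adjusted p = 0.090 and 0.069 in limma). For the stricter threshold, the specific probe sets and the replicate block, the share of all genes called was not counted. The member counts at these settings therefore cannot be set against it.

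The heat class medians moved as follows. Centring each array gave -0.31 for all members, -0.032 for rnp, -0.11 for rsp, -0.52 for sftb, 0.72 for snr and -0.081 for uaf; sftb-2 then passed (adjusted p = 0.039 in limma). Quantile normalisation gave -0.16 for all members, 0.018 for rnp, -0.063 for rsp, -0.27 for sftb, 0.48 for snr and -0.33 for prp. With only probe sets specific to 1 gene they were -0.64 over 6 prp, -0.17 over 7 rnp, -0.22 over 5 rsp and 1.44 over 4 snr genes. The prp and snr genes left in that setting kept their values, so their medians moved only because other genes dropped out. With the length trend removed the medians were 0.17 for rnp, -0.29 for sftb and 0.65 for snr. Under microwave the sftb median became 0.021 with quantile normalisation and -0.0091 with array weights, where sftb-1 also turned to -0.0091. Centring shifts every gene by the same amount. Apart from that shift and the smaller prp and snr sets, the cause of these moves was not tested.

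Leaving out 1 array at a time, the heat calls ranged from 0 to 19 members, 0 to 9 higher, 0 to 10 lower, 0 to 5 prp and 0 to 5 snr genes, 0 to 7 LSm genes and, over the other lists, 0 to 14 higher and 0 to 25 lower genes. The lowest counts came without the first array labelled heat shock. Without the second, 4 members and 4.58% of all genes passed, the members being 3 higher and 1 lower, 3 snr and 1 prp, with 2 higher and 6 lower genes of the other lists and 2 LSm genes. The medians ranged from -0.20 to -0.17 for all members, -0.67 to -0.45 for prp, -0.20 to 0.052 for rnp, -0.071 to 0.030 for rsp, -0.28 to 0.32 for uaf and, under microwave, -0.03 to 0.16 for sftb. The heat log2 fold change of sftb-1 ranged from -0.30 to 0.033, turning without the second array labelled heat shock, and that of uaf-2 from -0.14 to 1.22, turning without the first heat control array. Under microwave sftb-1 ranged from -0.055 to 0.22, turning without pair 1. Without pair 4, 4 members and 7.79% of all genes had an unadjusted p under 0.05 under microwave, and 0 passed after adjustment. Signal over background was not analysed here, since the values are ratios, so dim members could not be told from bright ones.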
